A study of Mus musculus with 10 samples.

Results

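The endothelin and angiotensin systems were followed through 8 genes in isolated cardiac myocytes of the mouse left ventricle: the endothelin genes Edn1 and Edn3, the endothelin-converting enzyme Ece1, the receptors Ednra and Ednrb, the angiotensin precursor Agt, the converting enzyme Ace and the receptor Agtr1a. The members were taken by symbol from 45882 gene IDs, and all 8 were found. RNA of 10 libraries was sequenced: 4 from CTCF knockout mice, 3 from mice with TAC (transverse aortic constriction, in which a narrowed aorta puts the left ventricle under pressure) and 3 from control mice. All mice were C57BL/6, each library had a mouse number of its own, and the labels give no genotype for the TAC mice. Alleles, the driver of the deletion, age, sex, and the operation and its duration are not given in the sources used here, nor is whether the controls carried any allele or agent of the knockout mice. CTCF is a DNA-binding protein that shapes chromatin loops.

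Both systems work through short peptides cut from longer precursors. Endothelins are cut to their active form by endothelin-converting enzyme and act on the type A and type B endothelin receptors; in the heart they are made mainly by endothelial cells, and the type A receptor on myocytes drives contraction and hypertrophic growth through the G protein Gq. Angiotensinogen, made mostly by the liver, is cut by renin to angiotensin I and by the angiotensin-converting enzyme to angiotensin II, which acts on type 1 receptors that also couple to Gq.

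The stretches that encode the mature peptides are shown because the 2 endothelin genes were measured separately and are alike here. Edn1 encodes its endothelin at chr13:42303649-42303711 (plus strand, exon 2) and Edn3 at chr2:174761749-174761811 (plus strand, exon 2), in mm10 coordinates with GENCODE transcript sequences. Capitals mark the bases that differ between them, 13 of 63, which changes 6 of 21 residues.
Edn1: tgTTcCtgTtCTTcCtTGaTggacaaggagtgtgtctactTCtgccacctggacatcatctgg
Edn3: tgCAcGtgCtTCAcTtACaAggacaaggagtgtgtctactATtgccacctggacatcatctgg
Agt encodes angiotensin I at chr8:124564450-124564479 (minus strand, exon 2), where capitals mark the 8 codons of angiotensin II and the 2 codons in lower case encode the residues that the converting enzyme removes.
Agt: GACCGCGTATACATCCACCCCTTCcatctc
No window of 50 nt of the Edn1, Edn3 or Agt transcripts occurred in a transcript of a gene outside the 8 members. Reads of these 3 genes were thus separable from those of such genes at that length. The members were not compared with each other, so this does not cover Edn1 against Edn3.

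Levels are given in FPKM (fragments per kilobase of transcript and per unit of library size), summed over the transcripts of a gene and rescaled between libraries. Genes of a mean of at least 1 FPKM were tested as log2(FPKM + 1) with limma, p values were adjusted over all 11358 tested genes, and a gene is said to have risen or fallen at an adjusted p under 0.05. This scale understates the change of low genes such as Edn1 and Edn3. The files give no read counts, so the depth of a library is unknown. The coverage that the files list per FPKM had medians between 3.90 and 6.09, a relative measure of depth. The targeted gene Ctcf, as a check of the labels, lay at 3.48 ± 0.871 FPKM in knockout libraries (SD, n = 4), 6.08 ± 1.10 FPKM in TAC libraries (SD, n = 3) and 7.99 ± 1.05 FPKM in control libraries (SD, n = 3). It fell in the knockout (log2 difference -1.02, limma adjusted p = 0.00136). Myocyte markers summed to between 31901 and 43276 FPKM in every library, far above those of any other cell type measured. By Xist and genes of the Y chromosome, knockout replicate 4, TAC replicates 1 and 3 and control replicate 2 were male and the other libraries female. The comparisons of knockout and of TAC with control use the same 3 control libraries.

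In knockout libraries Edn1, Edn3 and Ace rose and Ednra and Agtr1a fell, while Ece1, Ednrb and Agt did not pass the test. In TAC libraries Edn3 and Ace rose and Agtr1a fell, and the other 5 did not pass. Of the 8 members, 5 were called in knockout libraries, where 20.8% of all tested genes were called (10.6% higher and 10.2% lower), and 3 in TAC libraries, where 15.5% were (8.08% higher and 7.37% lower). Between knockout and TAC libraries 2 members were called, both lower in the knockout, against 3.28% of all tested genes in either direction, 1.58% higher and 1.7% lower. The members were chosen with earlier results of these data known. Edn1 and Edn3 passed the filter on low values through the groups where they were high. These counts are therefore a description and not a test of the members. The median log2 difference of the members was 0.06 in the knockout and 0.58 in TAC, beside -0.008 and -0.005 over all tested genes. The plot of the 8 members by library gives each value.

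**Figure D1:**
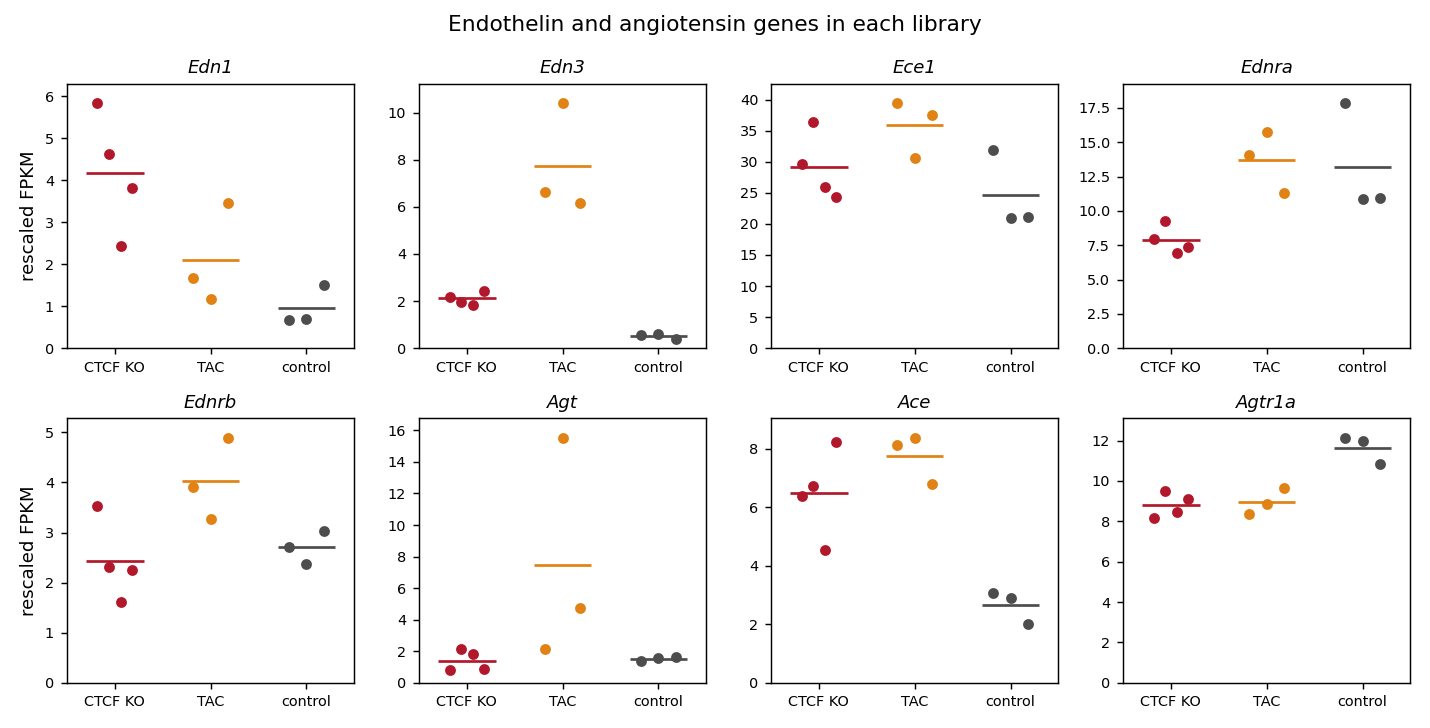
Rescaled FPKM (vertical axis, from 0) of the 8 genes in each library, with CTCF knockout (KO), TAC and control libraries from left to right; points are libraries and bars group means (n = 4, 3 and 3). Edn3 lay highest in TAC libraries, Ace lay higher in knockout and TAC than in control libraries, and 1 TAC library held 15.5 FPKM of Agt.

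Edn1, the gene of endothelin-1, the main endothelin of vessels (ENSMUSG00000021367, chr13:42301270-42307989, plus strand), rose in the knockout. It lay at 5.84, 4.63, 2.42 and 3.81 FPKM in knockout libraries, at 1.66, 1.17 and 3.45 FPKM in TAC libraries and at 0.674, 0.705 and 1.51 FPKM in control libraries. All 4 knockout libraries lay above all 3 controls, while TAC and control libraries overlapped. The means were 4.18 ± 1.43 FPKM in knockout (SD, n = 4) and 0.961 ± 0.471 FPKM in control libraries (SD, n = 3), a ratio of 4.34 and a log2 difference of 1.38 (SE 0.27, limma adjusted p = 0.00459). In TAC libraries the mean was 2.10 ± 1.20 FPKM (SD, n = 3) and the log2 difference from control 0.62 (SE 0.29, limma adjusted p = 0.18). Between knockout and TAC libraries the difference was 0.77 (SE 0.27, limma adjusted p = 0.161). Edn1 has 1 transcript in the files, and the confidence bounds deposited with its FPKM, which describe each library alone, ran from 2.23 to 7.13 in the knockout and from 0.426 to 1.83 in control libraries.

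Edn3, the gene of endothelin-3, which acts mainly through the type B receptor (ENSMUSG00000027524, chr2:174760619-174784042, plus strand), rose in both comparisons and most in TAC. Its level was 2.18, 1.98, 1.84 and 2.44 FPKM in knockout libraries, 6.63, 10.4 and 6.15 FPKM in TAC libraries and 0.571, 0.615 and 0.369 FPKM in control libraries. The 3 groups did not overlap, with TAC highest, knockout between and control lowest. The knockout mean of 2.11 ± 0.263 FPKM (SD, n = 4) was 4.07 times the control mean of 0.518 ± 0.131 FPKM (SD, n = 3), with a log2 difference of 1.03 (SE 0.16, limma adjusted p = 0.000989). The TAC mean of 7.73 ± 2.33 FPKM (SD, n = 3) was 14.9 times the control mean, with a log2 difference of 2.49 (SE 0.17, limma adjusted p = 9.67e-06). Knockout libraries lay below TAC libraries by a log2 difference of -1.46 (SE 0.16, limma adjusted p = 0.00208), which is the test of whether the change from control differed between knockout and TAC. These calls of Edn3 held in all 20 alternatives tried. Of its 4 transcripts, that of 3117 nt held 90.7% of the level in knockout, 88.8% in TAC and 63.6% in control libraries, where the total was low. Edn1 and Edn3 had control means under 1 FPKM, so both passed the filter on low values through the groups where they were high.

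Ece1, which cuts big endothelin to the active peptide (ENSMUSG00000057530, chr4:137862237-137965229, plus strand), did not pass the test in either comparison with control. It lay at 29.7, 36.4, 26.0 and 24.3 FPKM in knockout libraries, 39.4, 30.6 and 37.6 FPKM in TAC libraries and 31.8, 20.9 and 21.2 FPKM in control libraries. Control replicate 1 lay within the range of the other groups. The log2 difference from control was 0.24 in the knockout (SE 0.17, limma adjusted p = 0.363) and 0.54 in TAC (SE 0.18, limma adjusted p = 0.0696). The TAC difference passed without control replicate 1 (0.73, limma adjusted p = 0.018) and with FPKM as deposited (0.61, limma adjusted p = 0.0415). A transcript model of 172 nt held 51.9%, 50.1% and 53.5% of the summed level in knockout, TAC and control libraries, and the confidence bounds deposited for it spanned 1.84 to 31.4 FPKM over the knockout libraries, so the level of Ece1 is uncertain. Over the transcripts of at least 300 nt, chosen after this was seen, Ece1 lay at 14.3, 16.0, 10.8 and 14.9 FPKM in knockout libraries, 17.8, 13.3 and 22.6 FPKM in TAC libraries and 13.4, 10.6 and 10.3 FPKM in control libraries. Neither comparison with control passed there (limma adjusted p = 0.327 in the knockout and 0.0567 in TAC).

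**Figure D2:**
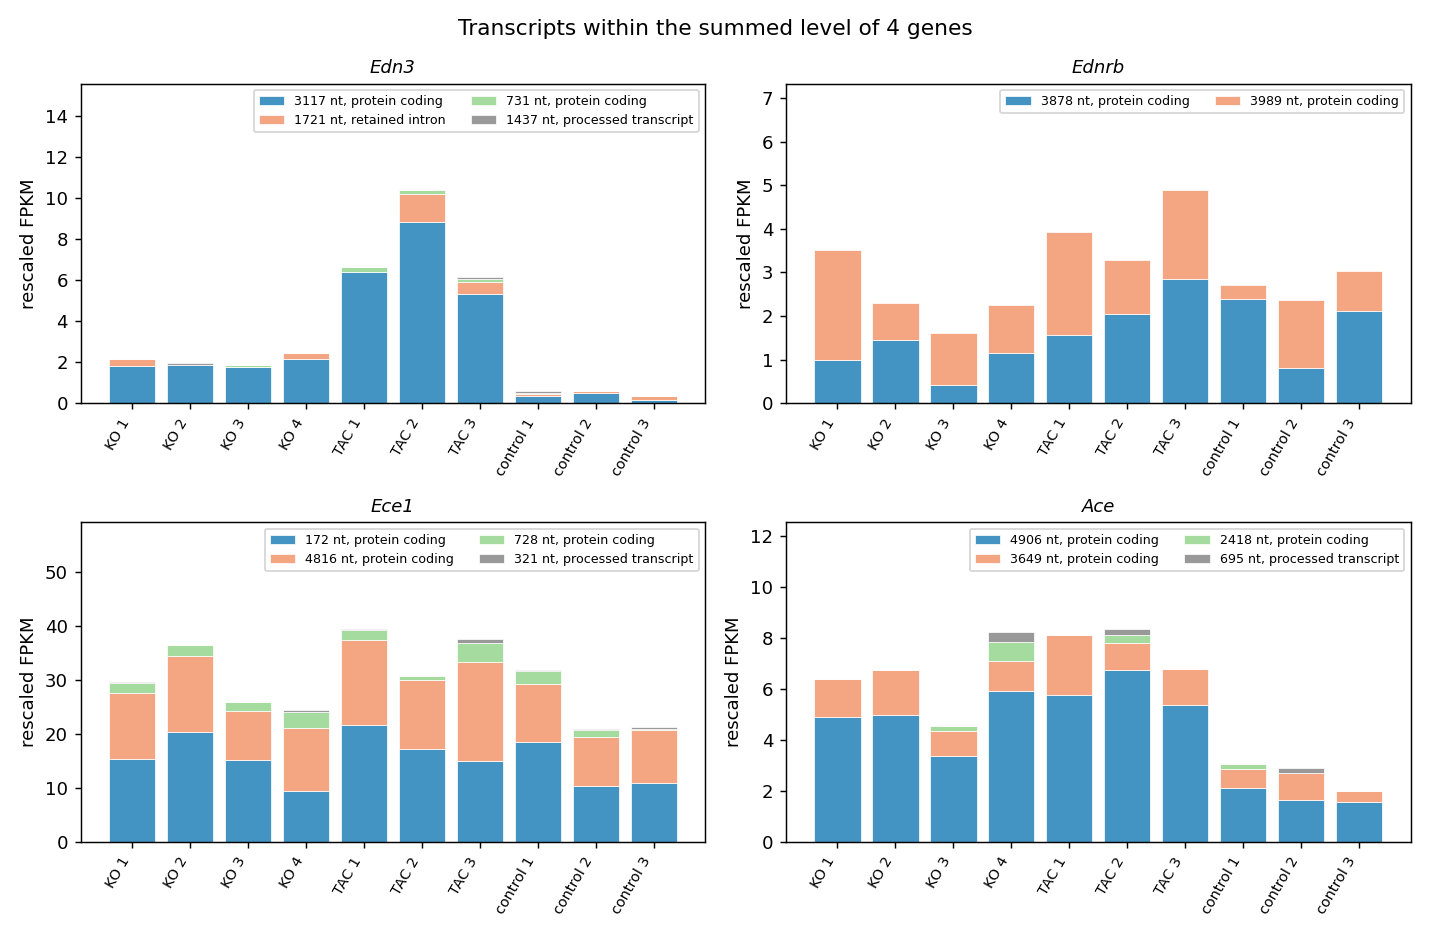
Rescaled FPKM (vertical axis, from 0) of each annotated transcript of Edn3, Ednrb, Ece1 and Ace, stacked by library, with knockout (KO), TAC and control libraries from left to right and the length and GENCODE type of each transcript in the legend. A 172 nt model holds 51.6% of Ece1 over all libraries and its 4816 nt transcript 41.5%, while 1 long transcript holds most of Edn3 in knockout and TAC libraries and most of Ace in all 3 groups.

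Ednra, the type A endothelin receptor (ENSMUSG00000031616, chr8:77663031-77724464, minus strand), fell in the knockout and not in TAC. Its level was 7.97, 9.29, 6.93 and 7.36 FPKM in knockout libraries, 14.1, 15.8 and 11.3 FPKM in TAC libraries and 17.8, 10.9 and 10.9 FPKM in control libraries. Every knockout library lay below every TAC and every control library. The log2 difference of the knockout was -0.65 from control (SE 0.17, limma adjusted p = 0.0216) and -0.72 from TAC (SE 0.17, limma adjusted p = 0.0477). That of TAC from control was 0.07 (SE 0.19, limma adjusted p = 0.835). The call against control was lost without control replicate 1, the highest control (-0.43, limma adjusted p = 0.0676), without knockout replicate 3 (-0.60, 0.055) and with no filter on low genes (0.0679). The call against TAC did not hold in 12 of 20 alternatives (limma adjusted p from 0.0143 to 0.167 over all 20), which include leaving out any knockout replicate, any TAC replicate or control replicate 2. An antisense gene, 4933431K23Rik, overlaps Ednra at a mean of 1.19 FPKM, and whether counting used the strand is not given in the sources used here.

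Ednrb, the type B receptor, which also clears endothelin (ENSMUSG00000022122, chr14:103814625-103844173, minus strand), was not called. It lay at 3.52, 2.31, 1.62 and 2.26 FPKM in knockout libraries, 3.92, 3.27 and 4.89 FPKM in TAC libraries and 2.71, 2.36 and 3.03 FPKM in control libraries. All 3 TAC libraries lay above all 3 controls, but the log2 difference of 0.43 did not pass (SE 0.19, limma adjusted p = 0.141). The knockout differed from control by -0.14 (SE 0.17, limma adjusted p = 0.628) and from TAC by -0.57 (SE 0.17, limma adjusted p = 0.102), and the last passed without knockout replicate 1 (limma adjusted p = 0.0491). Its 2 protein-coding transcripts, of 3878 and 3989 nt, took varying shares between libraries of 1 group, the first from 0.415 to 1.44 FPKM in the knockout and from 0.797 to 2.40 FPKM in control libraries.

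Agt, the angiotensin precursor (ENSMUSG00000031980, chr8:124556534-124569706, minus strand), spread widely within the TAC group. It lay at 0.789, 2.17, 1.80 and 0.899 FPKM in knockout libraries, 2.12, 15.5 and 4.74 FPKM in TAC libraries and 1.40, 1.55 and 1.66 FPKM in control libraries. The 3 TAC libraries lay above the 3 controls, and TAC replicate 2 stood far above the other 2. The log2 difference of TAC from control was 1.39 (SE 0.46, limma adjusted p = 0.0618), and without TAC replicate 2 it was 0.74 (limma adjusted p = 0.133). It passed without TAC replicate 1 (1.94, limma adjusted p = 0.01), with sex as a covariate (1.65, 0.0248) and with FPKM as deposited (1.43, 0.0469). The knockout differed from control by -0.11 (SE 0.43, limma adjusted p = 0.882) and from TAC by -1.51 (SE 0.43, limma adjusted p = 0.0823). The last difference passed without TAC replicate 1 (-2.05, limma adjusted p = 0.0286) and with sex as a covariate (-1.83, 0.0448). Since Agt is made by the liver, liver markers were measured beside it: Alb lay at 0 to 0.0219 FPKM in knockout libraries, 0 to 0.0516 FPKM in TAC libraries and 3.49 to 4.15 FPKM in control libraries. Of 20 liver markers, 14 lay lower in all 4 knockout libraries than in all 3 controls, and 14 lower in all 3 TAC libraries than in all 3 controls. Of the 26349 gene IDs above 0 in any library, 9.2% lay lower in all knockout libraries and 9.85% lower in all TAC libraries than in all controls. Summed liver markers, led by C3, spanned 11.6 to 31.1 FPKM in knockout, 15.9 to 50.0 FPKM in TAC and 23.8 to 39.3 FPKM in control libraries. TAC replicate 2, the highest in Agt, had the lowest sum of the TAC group, of which C3 made up 12.6 FPKM. C3 lay at 45.3 FPKM in TAC replicate 1 and 29.8 FPKM in TAC replicate 3. Alb went the other way and was highest of the TAC group in replicate 2 (0.0516 FPKM, against 0.0199 and 0 FPKM). The fibrinogen genes Fga, Fgb and Fgg were listed at 0 in all 7 knockout and TAC libraries. Adipocytes also make Agt, and their 6 markers summed to at most 0.334 FPKM in any library, with Lep at 0 in all 10. The part of liver RNA in the level of Agt was not tested in any group.

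Ace, the converting enzyme (ENSMUSG00000020681, chr11:105967945-105989964, plus strand), rose in both comparisons. Its level was 6.40, 6.74, 4.54 and 8.24 FPKM in knockout libraries, 8.12, 8.36 and 6.80 FPKM in TAC libraries and 3.08, 2.91 and 2.00 FPKM in control libraries. All 7 knockout and TAC libraries lay above the 3 controls. The knockout mean of 6.48 ± 1.52 FPKM (SD, n = 4) was 2.43 times the control mean of 2.66 ± 0.580 FPKM (SD, n = 3), with a log2 difference of 1.02 (SE 0.17, limma adjusted p = 0.00172). The TAC mean of 7.76 ± 0.838 FPKM (SD, n = 3) was 2.91 times the control mean, with a log2 difference of 1.27 (SE 0.18, limma adjusted p = 0.000964). Both calls held in all 20 alternatives, and knockout and TAC libraries overlapped (log2 difference -0.25, SE 0.17, limma adjusted p = 0.483). The transcript of 4906 nt held 74.1%, 76.9% and 66.7% of the level in knockout, TAC and control libraries. That of 2418 nt, which starts inside the gene, held 3.6%, 1.3% and 2.8%. An antisense gene, Gm11651, overlaps Ace at a mean of 0.642 FPKM and shares 3.77% of its windows of 50 nt.

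Agtr1a, the type 1a receptor of angiotensin II (ENSMUSG00000049115, chr13:30336441-30382867, plus strand), fell by a small margin in both comparisons. It lay at 8.17, 9.51, 8.46 and 9.10 FPKM in knockout libraries, 8.38, 8.88 and 9.67 FPKM in TAC libraries and 12.1, 12.0 and 10.8 FPKM in control libraries. All 7 knockout and TAC libraries lay below the 3 controls, with means of 8.81 ± 0.608 FPKM in knockout (SD, n = 4), 8.97 ± 0.650 FPKM in TAC (SD, n = 3) and 11.6 ± 0.704 FPKM in control libraries (SD, n = 3). The log2 difference was -0.37 in the knockout (SE 0.09, limma adjusted p = 0.0164) and -0.34 in TAC (SE 0.10, limma adjusted p = 0.0374), with -0.02 between them (SE 0.09, limma adjusted p = 0.924). Of 20 alternatives, 4 ended the knockout call, among which were no rescaling (-0.25, limma adjusted p = 0.109) and leaving out control replicate 1 (0.0517) or 2 (0.0555). For the TAC call 11 did so (limma adjusted p from 0.0325 to 0.113 over all 20), which include leaving out control replicate 1 or 2, knockout replicate 3 or 4, or TAC replicate 1 or 2. Agtr1b, its close copy, was listed at 0 in all 10 libraries and shares 1.37% of the windows of 50 nt of Agtr1a.

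**Figure D3:**
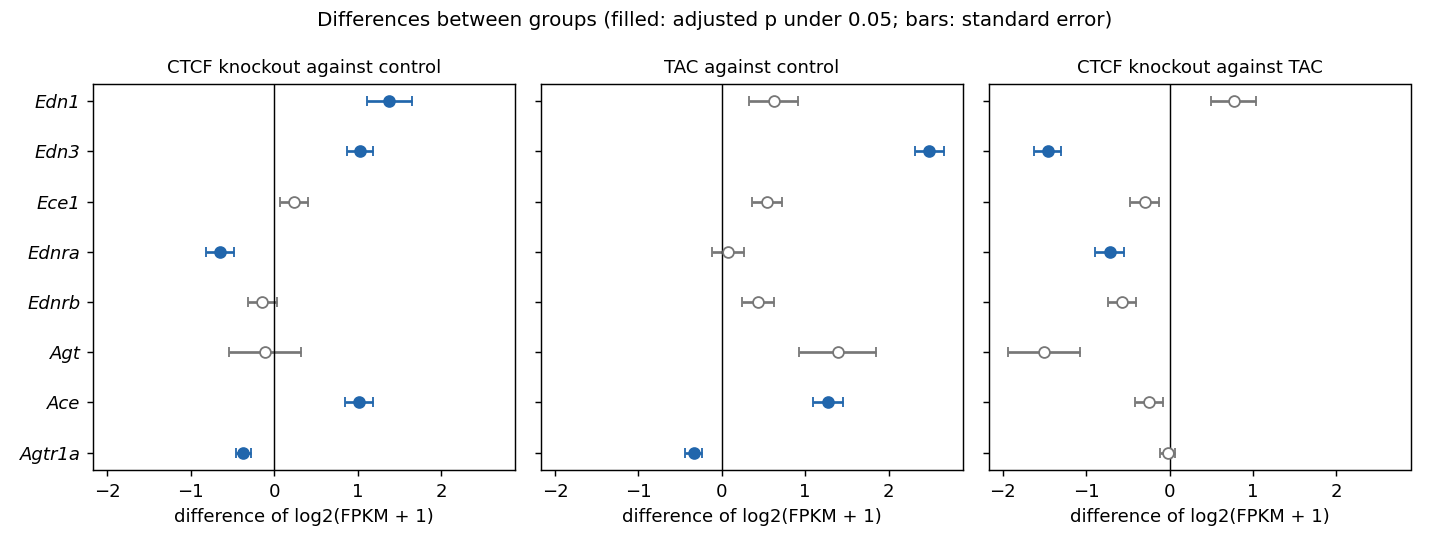
Difference of log2(FPKM + 1) (horizontal axis) for the 8 genes, with CTCF knockout against control, TAC against control and CTCF knockout against TAC from left to right; points are limma estimates, bars standard errors and filled points those at an adjusted p under 0.05. Edn3 and Ace lie right of 0 in both comparisons with control, Edn1 is filled in the knockout alone and Ednra lies left of 0 in both knockout comparisons.

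The order of the genes by level differed between the groups. In knockout libraries the means fell in the order Ece1 (29.1), Agtr1a (8.81), Ednra (7.89), Ace (6.48), Edn1 (4.18), Ednrb (2.43), Edn3 (2.11) and Agt (1.42 FPKM), in TAC libraries in the order Ece1 (35.9), Ednra (13.7), Agtr1a (8.97), Ace (7.76), Edn3 (7.73), Agt (7.46), Ednrb (4.02) and Edn1 (2.10 FPKM), and in control libraries in the order Ece1 (24.7), Ednra (13.2), Agtr1a (11.6), Ednrb (2.70), Ace (2.66), Agt (1.54), Edn1 (0.961) and Edn3 (0.518 FPKM). In control libraries neighbours overlapped between Ednra and Agtr1a, Ednrb and Ace, and Agt and Edn1, while Edn1 lay above Edn3 in each. In TAC libraries each pair of neighbours from Ace down to Edn1 overlapped, while Ece1, Ednra, Agtr1a and Ace did not overlap with each other. The place of Ece1 rests on its 172 nt model. Over transcripts of at least 300 nt its means were 14.0 FPKM in knockout, 17.9 FPKM in TAC and 11.5 FPKM in control libraries, which put it behind Ednra and Agtr1a in control libraries and made it overlap with Ednra in TAC libraries. In knockout libraries every pair of neighbours below Ece1 overlapped. The converting enzymes and receptors stood above the peptide genes in control libraries on this scale per length.

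Edn3 and Ace, the 2 members that rose in both comparisons, had no sequence feature in common among the motifs searched in the 250 bases before their RefSeq starts (GRCm38.p6). They are shown with matches in capitals.
Edn3, chr2:174760369-174760618, plus strand: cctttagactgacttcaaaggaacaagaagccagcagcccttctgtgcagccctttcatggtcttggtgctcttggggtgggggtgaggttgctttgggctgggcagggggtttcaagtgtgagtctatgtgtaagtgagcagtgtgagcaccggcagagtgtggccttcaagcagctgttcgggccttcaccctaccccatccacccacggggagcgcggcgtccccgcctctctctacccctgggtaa
Ace, chr11:105967698-105967947, plus strand: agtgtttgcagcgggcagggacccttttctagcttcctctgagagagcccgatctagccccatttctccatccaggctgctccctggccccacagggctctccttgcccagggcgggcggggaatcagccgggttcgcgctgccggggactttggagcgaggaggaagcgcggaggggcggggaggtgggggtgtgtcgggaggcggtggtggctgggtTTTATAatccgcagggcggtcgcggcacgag
The motifs, sought on both strands, were the TATA box TATAAA (in 12.4% of 32851 RefSeq promoters of the same length), the AP-1 site TGANTCA (6.75%), the GATA site AGATAA (9.99%), a core of the CTCF site (7.17%), and the hypoxia element ACGTG (16.6%). Ace held 1 TATA box on the minus strand 31 bases before its start and Edn3 held no match. Of the 7 members with a promoter in the RefSeq table, Agt held a TATA box as well, 30 bases before its start, and the other 5 held no match of any of these motifs. For Edn1 and Ednrb the RefSeq start lay 206 and 472 bases downstream of the deposited start of their highest transcript. Most of the Edn1 window and all of the Ednrb window lay past that start, so the bases before it were mostly not searched.

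Edn1, Ece1, Ednrb and Ace are also genes of endothelial cells, so marker genes of non-myocyte cells were read from the same data. Counts of called markers stand beside the shares over all tested genes. These were 20.8% in the knockout (10.6% higher and 10.2% lower) and 15.5% in TAC (8.08% higher and 7.37% lower). Of 15 endothelial markers, Emcn, Eng and Vwf rose in the knockout and 12 did not pass, with a median log2 difference of 0.38. In TAC limma called 0 of 15 (8 had an unadjusted p under 0.05), and all 15 had a mean above control, with a median log2 difference of 0.44. Endothelial markers summed to 125 to 208 FPKM in knockout, 148 to 209 FPKM in TAC and 100 to 140 FPKM in control libraries. Fibroblast markers rose in 5 of 10 tested cases in the knockout and in 5 of 10 in TAC, with sums of 185 to 277, 243 to 272 and 89.5 to 162 FPKM in knockout, TAC and control libraries. Those that rose were Col1a1, Col1a2, Col3a1, Mfap5 and Postn in both comparisons. Pdgfra, Dcn, Lum, Dpt and Fbln1 were not called in either, with log2 differences from -0.26 to 0.24 in the knockout and from -0.43 to 0.16 in TAC. Of 10 tested smooth muscle and pericyte markers, cell types that carry Ednra and Agtr1a, Cspg4 rose and Acta2 and Abcc9, which myocytes also express, fell in both comparisons. Their sums were 77.2 to 99.2 FPKM in knockout, 99.2 to 106 FPKM in TAC and 154 to 165 FPKM in control libraries. Abcc9 and Acta2 made up most of that difference: Abcc9 had means of 24.2 FPKM in knockout, 32.2 FPKM in TAC and 64.5 FPKM in control libraries, and Acta2 had 11.1 FPKM in knockout, 14.7 FPKM in TAC and 31.1 FPKM in control libraries. The median log2 difference of the list was -0.06 in the knockout and -0.16 in TAC. Pdgfrb, Notch3 and Cspg4 had means above control in both comparisons, and Rgs5, Kcnj8, Mylk, Myh11 and Tagln had means below control in both. Myh11 and Tagln were highest in control replicate 3, at 2.95 and 6.24 FPKM. On the log2 scale Myh11 differed by 0.12 in the knockout and -0.1 in TAC, and Tagln by 0 in both. Rgs5 had means of 30.7 FPKM in knockout, 33.0 FPKM in TAC and 42.9 FPKM in control libraries. It was not called (log2 difference -0.48, limma adjusted p = 0.0869 in the knockout, and -0.37, 0.239 in TAC). Of 12 macrophage and leukocyte markers, Adgre1 and Ctss rose, Cd163 fell and 9 did not pass in the knockout, with a median of 0.34. In TAC C1qc and Ctss rose and 10 did not pass, with a median of 0.53. The log2 difference was above 0 for 11 of 12 in the knockout and 12 of 12 in TAC, and their sums were 84.2 to 138 FPKM in knockout, 120 to 136 FPKM in TAC and 76.7 to 103 FPKM in control libraries. In these bulk libraries fewer cells of a type and less RNA per cell cannot be told apart, and the part of other cells in the levels of the 8 genes was not tested.

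**Figure D4:**
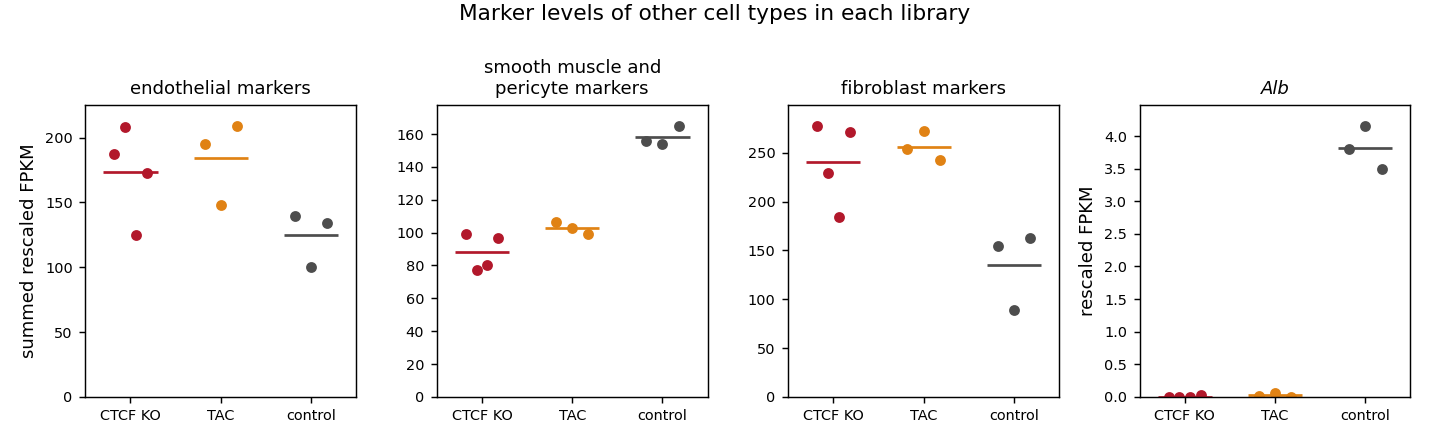
Summed rescaled FPKM (vertical axes, from 0) of endothelial, smooth muscle and pericyte, and fibroblast markers, and rescaled FPKM of Alb, in each library, with knockout (KO), TAC and control libraries from left to right; bars are group means. Smooth muscle and pericyte sums and Alb lie higher in all 3 control libraries, and fibroblast sums lie lower there.

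Several other genes of the 2 systems were at or near 0. Renin, Ren1, was listed above 0 in 1 of the 10 libraries, at 0.0308 FPKM, the type 2 receptor Agtr2 lay at most at 0.0151 FPKM, and Edn2 was above 0 in 1 TAC library. Of 6 other endothelin genes 1 was tested, the converting enzyme Ece2, and it was not called (log2 difference -0.17, limma adjusted p = 0.454 in the knockout; 0.10, 0.696 in TAC). Of 29 other angiotensin genes 14 were tested. In the knockout Agtrap, Nln and Prep rose, Hsd11b1 fell and 10 did not pass, and in TAC Prep and Agtrap rose, Nr3c2 fell and 11 did not pass. These are 4 of 14 in the knockout and 3 of 14 in TAC, beside 20.8% and 15.5% of all tested genes. Agtrap, which binds the type 1 receptor and promotes its internalization, had means of 11.4 FPKM in knockout, 9.77 FPKM in TAC and 7.61 FPKM in control libraries (log2 difference 0.52, limma adjusted p = 0.0017 in the knockout; 0.32, 0.0347 in TAC). The TAC call of Agtrap was lost in 11 of 20 alternatives. Neurolysin, Nln, a peptidase that cuts angiotensins among other peptides, had means of 5.88 FPKM in knockout, 5.12 FPKM in TAC and 3.79 FPKM in control libraries (0.53, limma adjusted p = 0.0043 in the knockout; 0.35, 0.0502 in TAC). Prolyl endopeptidase, Prep, which can make angiotensin 1-7, rose by 0.36 and 0.42 on the log2 scale in knockout and TAC (limma adjusted p = 0.0342 and 0.0313), and each call was lost in 8 of 20 alternatives. Nr3c2, the mineralocorticoid receptor, on which aldosterone acts, had means of 4.78 FPKM in knockout, 2.82 FPKM in TAC and 5.92 FPKM in control libraries (-0.23, limma adjusted p = 0.307 in the knockout; -0.84, 0.00543 in TAC). Hsd11b1, which makes active glucocorticoid, had means of 1.12 FPKM in knockout, 1.79 FPKM in TAC and 2.25 FPKM in control libraries (-0.60, limma adjusted p = 0.0192 in the knockout; -0.22, 0.427 in TAC). Its knockout call was lost in 5 of 20 alternatives.

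Neprilysin, Mme, a membrane peptidase that breaks down endothelins, angiotensins and natriuretic peptides, lay just under the filter with a mean of 0.995 FPKM, and was picked out after its values were seen. It lay at 0.222, 0.130, 0.226 and 0.269 FPKM in knockout libraries, 1.26, 0.562 and 0.603 FPKM in TAC libraries and 2.61, 1.74 and 2.33 FPKM in control libraries, with no overlap between the groups. In the fit with no filter on low genes, over 26349 gene IDs, the log2 difference from control was -1.40 in the knockout (limma adjusted p = 0.0013) and -0.85 in TAC (limma adjusted p = 0.0205). The difference between knockout and TAC did not pass (-0.56, limma adjusted p = 0.161).

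Downstream of both receptors, 7 of 23 tested genes of the Gq arm were called in the knockout (5 rose and 2 fell) and 8 in TAC (7 rose and 1 fell), with medians of 0.11 and 0.18, where 20.8% and 15.5% of all tested genes were called. Rgs2, which turns off Gq, fell in both comparisons, to 7.37 FPKM in knockout and 5.42 FPKM in TAC, against 17.7 FPKM in control libraries (log2 difference -1.15, limma adjusted p = 0.000365 in the knockout; -1.52, 0.000174 in TAC). The related Rgs3 rose, with 9.17 FPKM in knockout, 7.31 FPKM in TAC and 4.58 FPKM in control libraries (0.87, limma adjusted p = 0.000387; 0.57, 0.00943). Its TAC call was lost with the highest transcript alone (0.43, limma adjusted p = 0.144). Of 3 tested protein kinase C genes, Prkcd rose by 0.68 and 0.57 and Prkca by 0.53 and 0.75 on the log2 scale (knockout and TAC in this order). The other one, Prkce, was not called (-0.30, limma adjusted p = 0.269 in the knockout; -0.14, 0.678 in TAC). Plcb4, a phospholipase C that Gq activates, rose by 0.49 and 0.74, and Grk5, a kinase that desensitizes receptors, by 0.60 and 0.54. Gna12, another G protein alpha subunit, fell by 0.45 in the knockout (limma adjusted p = 0.00988, and 0.108 with FPKM as deposited) and differed by -0.06 in TAC (limma adjusted p = 0.742).

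**Figure D5:**
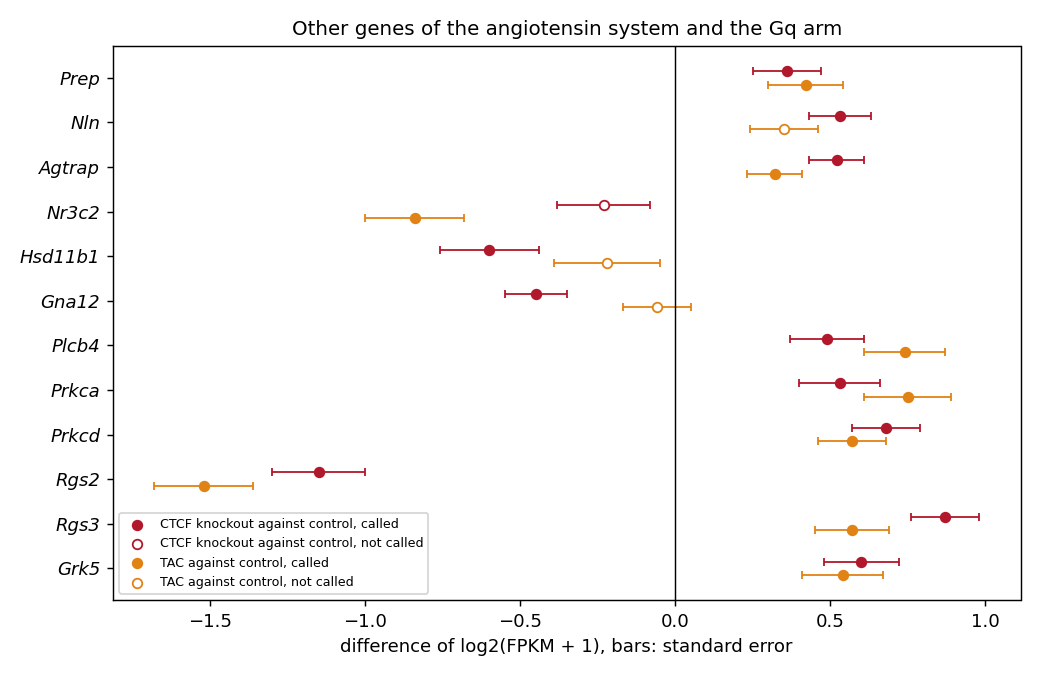
Difference of log2(FPKM + 1) from control (horizontal axis) of the named genes of the angiotensin system and the Gq arm, with CTCF knockout above TAC for each gene; bars are standard errors and filled points have an adjusted p under 0.05. Rgs2 has the lowest value in both comparisons and Rgs3, Prkcd, Prkca, Plcb4 and Grk5 lie right of 0 in both.

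The 8 members did not vary as 1 block. Over the 10 libraries the Pearson r of log2 levels, a description over libraries that share their groups, was 0.853 between Edn3 and Ace and 0.711 between Edn3 and Agt. It was 0.212 between Edn1 and Edn3, -0.706 between Edn1 and Ednra and -0.762, the lowest of all pairs, between Ace and Agtr1a. The value with Agt includes TAC replicate 2, which held 15.5 FPKM of Agt. Among tested protein-coding genes, Edn1 was most like Id3 (r = 0.945) and Hic1 (0.937), and Edn3 most like Myot (0.979) and Zfp651 (0.969). Ednra was most like Hk2 (0.936) and Ranbp9 (0.935), and Ednrb most like Nucb2 (0.919) and S100a10 (0.914). Ece1 was most like Rce1 (0.951) and Entpd1 (0.899), and Ace most like Adcy7 (0.982) and Slc9a7 (0.979). Agt was most like Bpgm (0.931) and Pnpla2 (0.924), and Agtr1a most like Scaf8 (0.962) and Trim23 (0.929).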

How the data were processed

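The authors deposited, for each library, 109869 Ensembl transcripts with an FPKM value, its confidence bounds and coverage, made with Cufflinks per the file headers and fields. The deposited score, a whole number per transcript, was not used. Per the submitters' processing notes the build was mm10, and the tools were Bowtie2, TopHat2 2.1.0, Cuffdiff and Cufflinks 2.2.1, with no roles stated. The labels give polyA RNA and also removal of ribosomal RNA with a stranded kit, so the RNA selection is uncertain.

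From these values, FPKM was summed by gene ID and symbols came from GENCODE M21. Of transcripts in both, 92.5% had equal coordinates. Gene IDs listed at 0 in some libraries and at a median of at least 100 FPKM in the others (22) and those with no transcript of at least 300 nt (7765) were left out. A median of ratios over genes set the scale of each library (factors 0.912 to 1.10), and 11358 gene IDs of a mean of at least 1 FPKM were tested as log2(FPKM + 1) with limma 3.58.1 in R 4.3.3, with a variance trend, all 10 libraries, two-sided p and Benjamini-Hochberg adjustment. Since all 8 members passed the filter, no exact permutation test was needed. The fit was tested on simulated data. Mouse numbers differ between all libraries, but nothing says that they were processed separately, so p values measure the spread between these samples. Named genes were the members, up to 5 called genes per pathway list and comparison by adjusted p, the 2 most alike genes per member and Ctcf. Members, lists and tests were chosen with earlier results of these data known.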

Additional observations from a re-analysis of the deposited data

Results flagged for a closer look

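The change of Edn3 from control differed between knockout and TAC libraries. Knockout libraries lay 1.46 lower on the log2 scale than TAC libraries (value -1.46, limma adjusted p = 0.00208), with all 4 knockout libraries (1.84 to 2.44 FPKM) below all 3 TAC libraries (6.15 to 10.4 FPKM), and both above the controls.

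The change of Ednra differed as well, with a log2 difference of -0.72 between knockout and TAC libraries (limma adjusted p = 0.0477). It lay at 6.93 to 9.29 FPKM in the 4 knockout libraries and at 11.3 to 15.8 FPKM in the 3 TAC libraries. The call was lost in 12 of 20 alternatives (limma adjusted p from 0.0143 to 0.167 over all 20).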

How the results depend on the processing

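Each result was recomputed under 20 alternatives, 1 of them (transcripts of at least 300 nt) chosen after seeing the data. The calls of Edn1, Edn3 and Ace in the knockout and of Edn3 and Ace in TAC held in all 20. Called members numbered 3 to 5 against the main 5 in the knockout (3 without control replicate 1), 2 to 4 against 3 in TAC, and 1 to 3 against 2 between knockout and TAC. The last count was 1 with no filter on the mean, with quantile normalization, with no trend of the variance, with the replicate block and without single replicates (1 to 2 over them). Leaving out 1 library gave 3 to 5 called members in the knockout. Of all genes, 1153 were called in TAC when only the 2 groups compared were fitted, against 1755. Between knockout and TAC 372 were called, 195 with no filter on the mean, 200 with the replicate block, 233 with sex as a covariate and 133 to 444 without single libraries. The cause of these shifts was not tested. Members that were not called changed sign near 0: Agt in the knockout without knockout replicate 1 (0.02; range without single libraries -0.26 to 0.02), Ednra in TAC without control replicate 2 or 3 (-0.04 each) or TAC replicate 2 (-0.03; range -0.04 to 0.29), and Agtr1a between knockout and TAC with FPKM as deposited (no rescaling, 0.04), without knockout replicate 1 (0.01) or TAC replicate 3 (0.03; range -0.07 to 0.03). Same-numbered libraries of different groups showed no clear pairing, though so few pairs cannot exclude it. Of their 9 correlations of deviations, 4 were over 0.1 (range -0.359 to 0.327). Of 24 pairs with different numbers, 8 were over 0.1 and the highest was 0.462, so not every library was most like its own number. With the replicate block, 1816 and 1544 genes were called in knockout and TAC. Agtr1a was then not called in either (0.0506 and 0.0798), nor Ednra between knockout and TAC (0.0818), and Agt was called in TAC (0.0352). Of the named pathway genes, the block ended the calls of Prep (0.0828 and 0.0713) and Hsd11b1 (0.0514) in the knockout or TAC and of Agtrap in TAC (0.0731). The depth of each single library is unknown, which limits Edn1, Edn3, Agt and Ednrb most, since they lay under 5 FPKM in most libraries.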

Other observations

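The balance of the endothelin genes within a library, which no rescaling can alter, set TAC libraries apart from the other 2 groups. The ratio of Edn1 to Edn3 in FPKM was 2.68, 2.34, 1.32 and 1.56 in knockout libraries, 0.251, 0.113 and 0.561 in TAC libraries and 1.18, 1.15 and 4.08 in control libraries. All 3 TAC libraries thus held less Edn1 than Edn3, and all knockout and control libraries more. The knockout ratios lay within the range of the control ratios. Both genes were low in control libraries, as in control replicate 1 with 0.674 FPKM of Edn1 and 0.571 FPKM of Edn3, so the ratios there are uncertain. Their sum was 8.01, 6.61, 4.26 and 6.26 FPKM in knockout libraries, 8.29, 11.6 and 9.60 FPKM in TAC libraries and 1.25, 1.32 and 1.88 FPKM in control libraries, with knockout and TAC above control throughout.

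The ratio of Ednra to Ednrb overlapped between groups, with 2.26 to 4.28 in knockout, 2.31 to 4.82 in TAC and 3.60 to 6.58 in control libraries. Among the TAC mice the highest Agt, 15.5 FPKM, belonged to the only female, and the 2 males lay at 2.12 and 4.74 FPKM. With 1 female this was not tested.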
